A study of Danio rerio with 12 samples.

Results

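The cytosolic ribosomal protein genes encode the protein parts of the ribosome that translates messenger RNA in the cytoplasm. They were taken here as all genes whose symbol in the zebrafish gene name table begins with rpl, rps, rplp or rpsa followed by the numbering of the family, leaving out the rps6k kinases. This gave 85 of the 32047 gene identifiers in the files: 47 of the large subunit, 37 of the small subunit, and rps19bp1, which encodes a binding protein of RPS19 and not a subunit. RPL7L1, counted with the large subunit, is a relative of RPL7 and may likewise not sit in the finished ribosome. The table gives many zebrafish genes the capital symbol of their orthologue. The 85 members carry 81 distinct symbols, so copies with the same symbol are told apart by identifier.

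Messenger RNA was measured by Quartz-seq, which copies small amounts of RNA from an oligo-dT primer and amplifies the product by PCR, in 12 libraries from the kidney of adult wild-type zebrafish, the main blood-forming organ of adult fish. The niche set held ZKS cells, pericytes, whose titles name pdgfrb, and sinusoids, whose titles name high Ac-LDL (acetylated low-density lipoprotein, which endothelial cells take up). The DP set, so titled, held gata2a+ runx1+ cells that had been kept on ZKS cells with IWR-1-endo and Thpo added (co-cultured, treated), on ZKS cells alone (co-cultured), or not cultured. Each of the 6 groups had 2 libraries. IWR-1-endo stabilises Axin and so lowers Wnt signalling through beta-catenin, and Thpo is thrombopoietin, a cytokine of blood stem cells and megakaryocytes. A stromal line grown from zebrafish kidney goes by the name ZKS too. By the labels the profiled ZKS cells were sorted, and whether they came from a culture is not said. Nor do the labels say that the 2 libraries of a group came from separate animals or cultures, so p-values measure only the spread between these libraries, which may be technical.

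A ribosome is built from a small subunit, which reads the messenger, and a large subunit, which joins the amino acids, and each holds 1 copy of most of its proteins. In mammals the messengers of these proteins begin with a 5' terminal oligopyrimidine (TOP) tract, through which the kinase mTOR sets their translation as a group, and their transcription is raised by Myc. Blood formation is sensitive to their dose: in people, loss of 1 copy of any of several of these genes causes Diamond-Blackfan anaemia, in which red cell precursors fail.

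Depth and cell identity were read before the members. The niche libraries held 6984492 to 16242092 recovered reads, and 15545 to 20626 genes were above 0, while 7329 to 9712 genes were above 0 in the DP libraries, whose depth is unknown. The endothelial marker list summed to 13421 and 12978 CPM (a gene's reads scaled to a common library total) in sinusoids, against 119 CPM or less for each pericyte and ZKS library and at most 19.7 CPM for any DP library. The mural and stromal list summed to 7853 and 7454 CPM in pericytes, with 398 and 366 in ZKS cells, 46.7 and 18.3 in sinusoids and at most 1.7 in DP libraries. Markers of other cells were present in the pericyte and sinusoid libraries. The erythroid list (alas2, hbaa1 and hbaa2) reached sums of 0.11 and 0 CPM in ZKS cells, with 156 and 267 in pericytes and 1154 and 535 in sinusoids. For the renal tubule list the sums were 7.13 and 6.77 CPM in ZKS cells, with 237 and 429 in pericytes and 1067 and 2.33 in sinusoids. For the macrophage list they were 0.87 and 0.9 CPM in ZKS cells, with 3158 and 4265 in pericytes and 241 and 377 in sinusoids. Most of the pericyte sum came from the antigen presentation gene cd74a, at 2432 and 3251 CPM. MFAP4 copy ENSDARG00000116066 was also higher in pericytes, at 491 and 835 CPM against 1.65 and 0.31 in sinusoids. In contrast, marco was at 30.97 and 7.3 CPM in pericytes against 36.6 and 86.6 in sinusoids. In the DP libraries the macrophage list summed to 2884 to 6314 CPM, almost all of it from cd74a. The part of these other cells in the results on ribosomal protein genes was not tested.

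As a share of the library, the 85 members took 4.33% and 6.26% of all CPM in ZKS cells, with 4.56% and 6.63% in pericytes and 4.09% and 3.58% in sinusoids. In DP cells they took 13.8% and 15.6% with IWR-1-endo and Thpo, 16.2% and 20.8% in co-culture alone, and 18.1% and 18% when uncultured. The DP and niche sets were deposited as separate tables to different decimals, so the higher DP share is a description with no test. Within the niche set, the ZKS share averaged 5.29% ± 1.36 (SD, n = 2) and overlapped that of pericytes, 5.59% ± 1.46 (SD, n = 2). Both lay above the sinusoid share of 3.83% ± 0.361 (SD, n = 2) in every library, by 1.38 and 1.46 times in the means. Within the DP set, both libraries with IWR-1-endo and Thpo lay below both co-cultured libraries (0.795 times in the means) and below both uncultured ones (0.814 times), while the co-cultured and uncultured libraries overlapped. No test was made of these summed shares. An exact permutation test of 2 libraries against 2 cannot go below a two-sided p of 0.333. In bulk samples such as these, fewer cells of a type and less RNA per cell cannot be told apart.

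**Figure D1:**
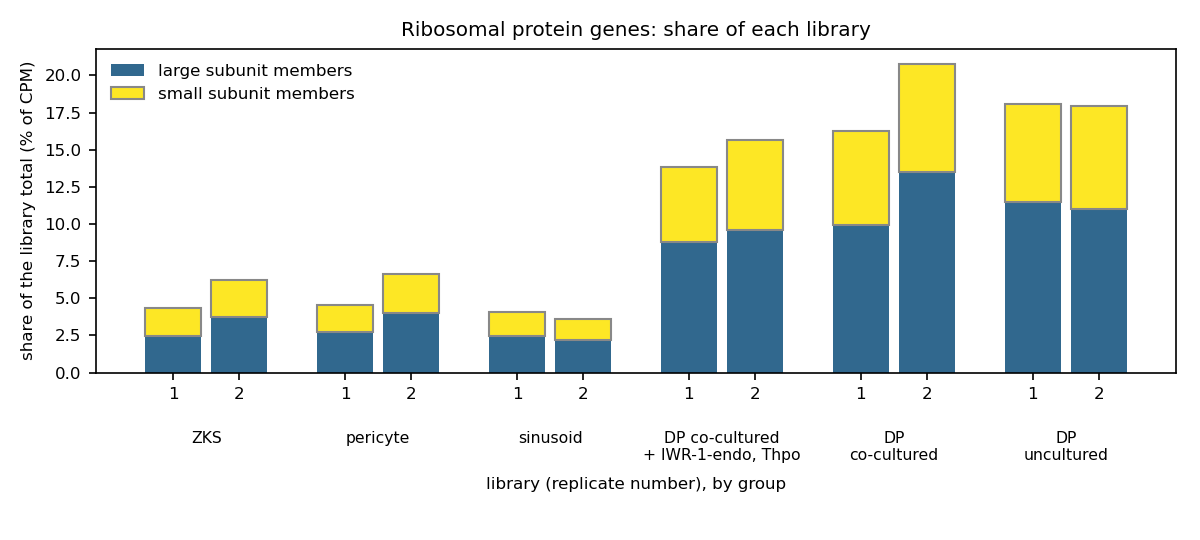
Share of each library's total CPM (y axis, percent) taken by members of the large and the small subunit, as stacked bars for the 12 libraries grouped on the x axis. The 6 niche libraries sit between 3.58% and 6.63%, and the 6 DP libraries between 13.8% and 20.8%, with the IWR-1-endo and Thpo libraries lowest among the DP bars.

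Small-subunit members made up 35% to 43.5% of the members' CPM in every library, so the balance of the subunits varied less than the total. Of 79 members that passed the filter on low values in both sets, 60 were higher in every DP library than in every niche library, and 0 were lower in every DP library than in every niche library. The same count was not made over all genes, and fewer genes were above 0 in the DP libraries. It therefore does not show a trait particular to the members. The other 19 members had libraries of the sets in overlap. Among these 19 was RPSA2, the table's symbol for the gene of the laminin receptor protein of the small subunit. RPSA2 (ENSDARG00000019181) was at 5927 and 6231 CPM in ZKS cells, with 4983 and 4948 in pericytes and 3867 and 3325 in sinusoids. It was at 3426 and 3826 CPM in DP cells with IWR-1-endo and Thpo, 4816 and 5457 CPM in co-culture alone and 5782 and 5818 CPM when uncultured. Its DP levels thus lay within the range of its niche levels, unlike those of RPL11 (ENSDARG00000043509), whose protein forms a complex with RPL5 and the smallest ribosomal RNA. RPL11 was at 2433 and 2649 CPM with IWR-1-endo and Thpo, 2255 and 3653 CPM in co-culture and 2715 and 2502 CPM when uncultured, against 176 to 617 CPM in the 6 niche libraries.

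Most members were detected everywhere, with 80 to 82 of the 85 at 1 CPM or more in each library. In the niche set 81 members passed the filter of at least 1 CPM in at least 2 libraries, and RPL26, RPL9, rpl32 and rps11l did not. In the DP set 81 passed, and 4 did not, among them RPL26, RPL9 and rps27l. RPL26 was listed at 0 in all 6 DP libraries and reached at most 0.57 CPM, in pericyte replicate 2. RPL9 reached at most 0.55 CPM in any library. Reads of near-identical copies may have been split or dropped by the authors' counting, so a low value of 1 copy is uncertain. The gene rps27l was listed at 0 in 4 DP libraries, at 0.5 CPM in uncultured replicate 2 and at 56.1 CPM in co-cultured replicate 2.

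**Figure D2:**
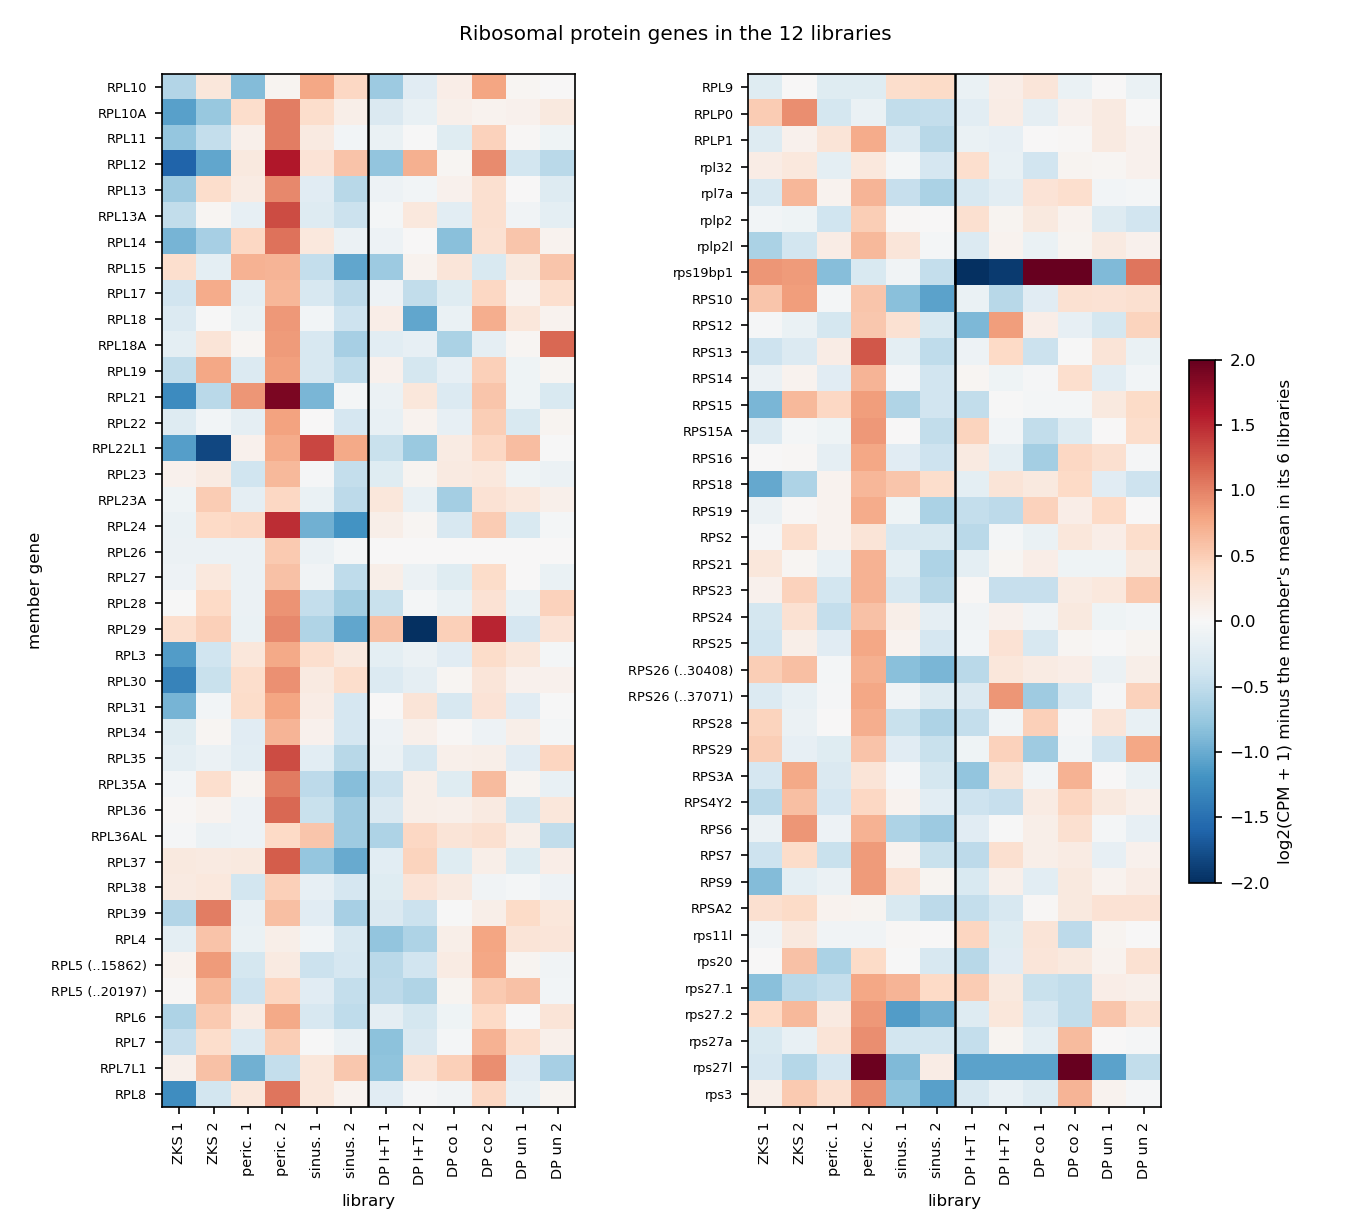
Level of 79 members in the 12 libraries (columns, niche set left of the line, DP set right), as log2(CPM + 1) minus the member's mean over the 6 libraries of its set (colour scale, cut at 2 in either direction). Pericyte replicate 2 is above the mean for nearly all members. RPL12 and RPL22L1 set ZKS cells apart from the other niche groups, and rps27.2 sets sinusoids apart. RPL22L1 was at 15.4 and 24.6 CPM in pericytes against 37.9 and 25.1 in sinusoids, a difference that did not pass.

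The comparison of ZKS cells with pericytes sets 2 sorted populations side by side. If the ZKS cells came from a culture, which the labels do not say, culture and cell type cannot be told apart in any ZKS comparison. Among the ribosomal protein genes that passed, all were lower in ZKS cells. In the fit of all 6 niche libraries, however, they were no larger a share of the members than of all genes. The summed share of the library overlapped as given above. Of 81 members tested, 17 fell in ZKS cells (21%) and 0 rose (limma with Benjamini-Hochberg adjustment over 15916 genes). Over all genes tested 37.2% were called (22.0% fell and 15.2% rose), so the share of members that fell was near the background. At an unadjusted p under 0.05, 24 members were lower and 1 higher, where 47.5% of all genes tested passed that limit in either direction. The members' median log2 change on the log2(CPM + 1) scale was -0.69, against -0.15 for all genes tested, and 75 of 81 were negative. On the CPM as deposited it was -0.32, against 0.10 for all genes tested, with 64 of 81 negative. Without pericyte replicate 2 it was -0.25 with 56 negative, and without pericyte replicate 1 it was -1.10 with 78 negative. By CPM as deposited, both ZKS libraries lay below both pericyte libraries for 23 of 81 members (34.7% of all genes tested did) and above them for 4 (39.8% did). Those that fell were 13 of 44 large-subunit and 4 of 36 small-subunit members, a difference that was not tested.

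RPL21 (ENSDARG00000010516), a large-subunit protein, was at 4.54 and 8.1 CPM in ZKS cells, against 23.4 and 47.8 in pericytes. Its log2 change was -2.61 ± 0.62 (SE, adjusted p = 0.0182). RPL12 (ENSDARG00000006691), at the base of the stalk that recruits elongation factors, was at 8.96 and 13.7 CPM in ZKS cells, against 33.7 and 90.5 in pericytes, a change of -2.56 ± 0.56 (adjusted p = 0.0131). Both ZKS libraries lay below both pericyte libraries for these 2 genes, although pericyte replicate 2 was well above replicate 1. RPL22L1 (ENSDARG00000010244), the relative of RPL22, was at 6.15 and 3.34 CPM in ZKS cells, against 15.4 and 24.6 in pericytes (-2.20 ± 0.44, adjusted p = 0.00966). RPL10A (ENSDARG00000042905), of the mobile arm where spent transfer RNA leaves, was at 118 and 149.8 CPM in ZKS cells, against 324 and 516 in pericytes (-1.97 ± 0.33, adjusted p = 0.00492). RPL14 (ENSDARG00000103433), also of the large subunit, was at 87.5 and 105 CPM in ZKS cells, against 223 and 359 in pericytes (-1.91 ± 0.32, adjusted p = 0.00514). None of these 5 genes had overlapping groups. The other 12 that fell, with changes of -1.84 to -0.95, included RPL30, RPL8, RPL3, RPL11, RPS18, RPL31, RPS13, rplp2l, rps27a, RPL15 and RPLP1.

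The number of members that fell changed with the library left out, while the changes of the 5 named first kept their direction. Fewer members fell without ZKS replicate 1, ZKS replicate 2 or pericyte replicate 2 in turn. Fewer of all genes were called in those fits too. Without pericyte replicate 1 more members fell, although fewer of all genes were called. Without ZKS replicate 1 the change of RPL21 was -2.21 (adjusted p = 0.119), that of RPL12 -2.24 (0.0852), that of RPL10A -1.76 (0.0506) and that of RPL14 -1.73 (0.0526). Leaving out ZKS replicate 2 put RPL22L1 at -1.85 (adjusted p = 0.0938) and RPL21 at -2.96 (0.0631). Without pericyte replicate 2, RPL21 was at -2.09 (adjusted p = 0.0917) and RPL12 at -1.84 (0.0531). On the CPM as deposited, without TMM scaling (which sets libraries to a common level by a trimmed mean of their gene ratios), 10 members fell and 3 rose, and 51.2% of all called genes were higher in ZKS cells, against 40.8% with TMM scaling. The 3 were RPLP0, RPL7L1 and rps19bp1, named after their values were seen. When libraries were scaled to the members' own median, which asks how members differ among themselves, 4 fell (RPL21, RPL12, RPL10A and RPL14) and 2 rose (RPL7L1 and rps19bp1), and 58.9% of all called genes were higher. RPL7L1 was at 50.1 and 70.1 CPM in ZKS cells, against 23.4 and 33.2 in pericytes, and rps19bp1 at 24.2 and 23.6 CPM in ZKS cells, against 6.57 and 10.02 in pericytes. These are the members noted at the outset as a relative and a binding protein of ribosomal proteins.

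Against sinusoids, the members that passed went both ways in ZKS cells, and a smaller share of members than of all genes rose or fell. Of 81 members, 3 rose (3.7%) and 6 fell (7.41%), where 31.6% of all genes tested were called (13.7% rose and 17.9% fell). The members' median change was 0.03, against -0.12 for all genes tested, with 42 positive and 39 negative. On the CPM as deposited it was 0.32, against 0.03 for all genes tested, and without ZKS replicate 2 it turned to -0.21 with 53 negative. By CPM as deposited, both ZKS libraries lay above both sinusoid libraries for 34 members (37.2% of all genes tested did) and below them for 15 (32.7% did). RPS10 (ENSDARG00000034897), a small-subunit protein near the entry of the messenger, was at 1116 and 1367 CPM in ZKS cells, against 427 and 362 in sinusoids (1.35 ± 0.32, limma adjusted p = 0.0191). The copy rps27.2 (ENSDARG00000055475) was at 214 and 257 CPM in ZKS cells, against 74.6 and 82.1 in sinusoids (1.28 ± 0.36, adjusted p = 0.0343). RPS26 copy ENSDARG00000030408, near the messenger's exit, was at 217 and 235 CPM in ZKS cells, against 86.5 and 81.5 in sinusoids (1.12 ± 0.34, adjusted p = 0.0432). All 3 belong to the small subunit, and their groups did not overlap.

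Of those that fell, RPL22L1 was at 6.15 and 3.34 CPM in ZKS cells, against 37.9 and 25.1 in sinusoids (-2.77 ± 0.44, adjusted p = 0.00432). RPL12 was at 8.96 and 13.7 CPM in ZKS cells, against 35.5 and 43.6 in sinusoids (-2.01 ± 0.56, adjusted p = 0.0329). RPS18 (ENSDARG00000100392), in the head of the small subunit, was at 71.5 and 95.5 CPM in ZKS cells, against 216 and 187 in sinusoids (-1.57 ± 0.33, adjusted p = 0.0123). For each of these 3, every ZKS library lay under every sinusoid library. The copy rps27.1 (ENSDARG00000023298) was at 63.6 and 77.6 CPM in ZKS cells, against 182 and 149.8 in sinusoids (-1.51 ± 0.44, adjusted p = 0.0384). RPL10A changed by -1.45 ± 0.33 (adjusted p = 0.0159), and RPL14, named although 5 others changed more, by -1.14 ± 0.32 (adjusted p = 0.035). The calls, more than the sizes of the changes, varied with the library left out. With each of the 4 libraries left out in turn, fewer members rose, fewer fell and fewer of all genes were called. For RPL22L1 the adjusted p was 0.0504 without ZKS replicate 2 and under 0.05 without each of the other 3 libraries in turn. RPS26 copy ENSDARG00000030408, RPL12 and rps27.1 missed the threshold whichever of the 4 libraries was left out, with adjusted p-values of 0.0639 to 0.199, 0.0539 to 0.185 and 0.0981 to 0.208. Their changes in those fits were 1.02 to 1.31 for the RPS26 copy, -2.30 to -1.65 for RPL12 and -1.63 to -1.28 for rps27.1. RPS10 missed it when either ZKS library was left out, at 1.59 without replicate 1 (adjusted p = 0.0709) and 1.23 without replicate 2 (0.137). RPS18, RPL10A and RPL14 also lost their calls when either ZKS library or sinusoid replicate 2 was left out. The call of rps27.2 was lost when either ZKS library was left out. On the CPM as deposited 6 members rose and 5 fell.

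Pericytes were compared with sinusoids, the vascular lining they surround. The members' changes were positive for 74 of 81, with a median of 0.61, against -0.06 for all genes tested, but a smaller share of members than of all genes rose. Without pericyte replicate 2 the median was 0.19 with 58 positive, and without pericyte replicate 1 it was 1.13 with 77 positive. Of 81 members, 7 rose (8.64%) and 0 fell, where 25.4% of all genes were called (14.4% rose and 10.9% fell). At an unadjusted p under 0.05, 20 members were higher and 1 was lower, where 38.4% of all genes tested passed that limit in either direction. By CPM as deposited, both pericyte libraries lay above both sinusoid libraries for 41 members (27.0% of all genes tested did) and below them for 3 (30.8% did). RPL24 (ENSDARG00000099104), whose protein reaches from the large towards the small subunit, was at 427 and 891 CPM in pericytes, against 163 and 139.5 in sinusoids (2.09 ± 0.42, limma adjusted p = 0.0136). RPL37 (ENSDARG00000034291), a zinc-binding protein of the large subunit, was at 83.3 and 169.8 CPM in pericytes, against 42.3 and 35.9 in sinusoids (1.65 ± 0.38, adjusted p = 0.0224). The small-subunit gene rps3 (ENSDARG00000103007) was at 1256 and 1932 CPM in pericytes, against 576 and 474 in sinusoids (1.64 ± 0.34, adjusted p = 0.0151). In each case pericyte replicate 2 was the highest of the 4 libraries. The copy rps27.2 was at 184.5 and 297 CPM in pericytes, against 74.6 and 82.1 in sinusoids (1.64 ± 0.36, adjusted p = 0.0182). RPL15 (ENSDARG00000009285), a large-subunit protein whose pericyte libraries were close together, was at 1786 and 1758 CPM in pericytes, against 794 and 534 in sinusoids (1.51 ± 0.28, adjusted p = 0.0104). RPS10 and RPS26 copy ENSDARG00000030408 rose by 1.28 ± 0.32 and 1.27 ± 0.34 (adjusted p = 0.028 and 0.0338).

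The number of members that rose varied with the library left out. Without pericyte replicate 2 the changes were smaller for RPL24 (1.54), RPL37 (1.12), rps3 (1.31) and rps27.2 (1.27), and no member kept its call. Fewer of all genes were called there too. The change of RPL15 was 1.5 in that fit (adjusted p = 0.0562), nearly as in the fit of all libraries. Without pericyte replicate 1 more members rose, although fewer of all genes were called. Without sinusoid replicate 1 or sinusoid replicate 2, fewer members rose and fewer of all genes were called. RPL24 lost its call without sinusoid replicate 2. On reads recovered from the CPM steps, edgeR's quasi-likelihood test called 1 of the 81 members (RPL24, log2 change 2.27, adjusted p = 0.0493) and 1226 of 14888 genes. Scaled to the members' own median, RPL24 still rose (1.45, adjusted p = 0.0339) and RPL7L1 fell (-1.66, adjusted p = 0.0342), and 38.7% of all called genes were higher in pericytes, against 56.9% with TMM scaling. RPL7L1 was at 23.4 and 33.2 CPM in pericytes, against 54.6 and 68.3 in sinusoids.

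**Figure D3:**
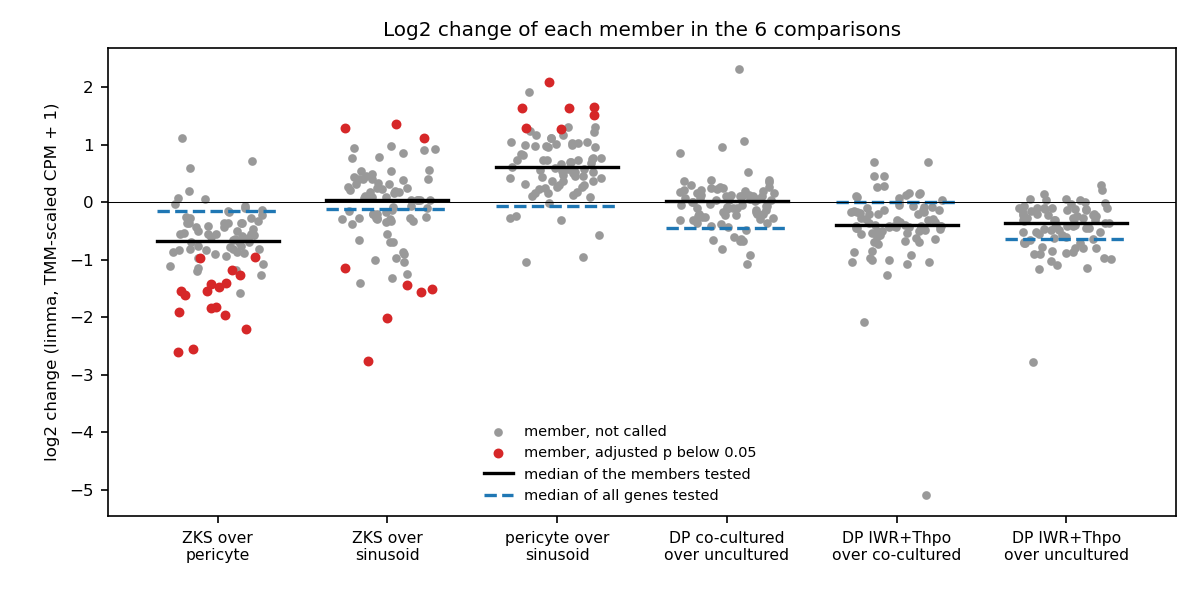
Log2 change of each tested member (points) in the 6 comparisons (x axis), from the limma fit on TMM-scaled log2(CPM + 1), with the median of the members (solid line) and of all genes tested (dashed line). Red points passed an adjusted p of 0.05: 17 lower in ZKS cells against pericytes, 3 higher and 6 lower in ZKS cells against sinusoids, 7 higher in pericytes against sinusoids, and 0 in the 3 DP comparisons.

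The stalk of the large subunit, which draws elongation factors to the ribosome, had 2 of 4 members that fell in ZKS cells against pericytes, where 22.0% of all genes fell, and 0 that rose, and 0 of 4 passed in the other niche comparisons. RPLP0 (ENSDARG00000051783), its anchor, was at 8197 and 10898 CPM in ZKS cells, with 4515 and 5216 in pericytes and 4084 and 4142 in sinusoids. Both ZKS libraries lay above the other 4, but with TMM scaling the changes did not pass (0.60 ± 0.38, adjusted p = 0.263 against pericytes and 0.90 ± 0.38, adjusted p = 0.12 against sinusoids). On the CPM as deposited they were 0.96 (adjusted p = 0.0156) and 1.2 (adjusted p = 0.00779). RPLP1 (ENSDARG00000021864), which joins the stalk's tip, was at 238 and 301 CPM in ZKS cells, with 341 and 478 in pericytes and 236 and 193 in sinusoids. Against pericytes it fell, with a change of -0.95 ± 0.30 (adjusted p = 0.0437), and its adjusted p ranged from 0.0318 to 0.696 over 11 alternatives, 6 of which ended the call. The copy rplp2l (ENSDARG00000011201) was at 65.7 and 78.9 CPM in ZKS cells, with 114 and 160.5 in pericytes and 122 and 99.99 in sinusoids (-1.26 ± 0.30 against pericytes, adjusted p = 0.0176, 4 of 11 alternatives ending the call). Its partner copy rplp2 (ENSDARG00000101406) was at 122 and 119 CPM in ZKS cells, with 95.3 and 177 in pericytes and 129 and 128 in sinusoids, with overlap between ZKS cells and pericytes.

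RPS6 (ENSDARG00000019778), the small-subunit protein phosphorylated by the S6 kinases downstream of mTOR, was at 1390 and 2782 CPM in ZKS cells, with 1416 and 2438 in pericytes and 983 and 909.9 in sinusoids. In the ZKS and pericyte groups replicate 2 was well above replicate 1, and none of the 3 niche comparisons passed. RPSA2 did not pass in any niche comparison either with TMM scaling. On the CPM as deposited it was higher in ZKS cells than in sinusoids (0.76, limma adjusted p = 0.024). Its change against pericytes was near 0 with a direction that depended on the scaling: -0.07 ± 0.33 with TMM scaling and 0.29 on the CPM as deposited.

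The Diamond-Blackfan genes were 24 members, of which 23 were tested in each set. In ZKS cells 3 of the 23 fell against pericytes and 0 rose, where 22.0% of all genes fell and 15.2% rose, and against sinusoids 3 rose and 1 fell, where 13.7% of all genes rose and 17.9% fell. In pericytes 4 rose against sinusoids and 0 fell, where 14.4% and 10.9% of all genes did, and in the DP set none of the 23 passed. Those that fell in ZKS cells against pericytes were RPL11, RPL31 and RPL15. RPL11 was at 176 and 216 CPM in ZKS cells, against 323 and 617 in pericytes (-1.55 ± 0.37, limma adjusted p = 0.0181), and 4 of 11 alternatives ended the call. RPL31 (ENSDARG00000053365), at the end of the exit tunnel for the new chain, was at 69.7 and 129 CPM in ZKS cells, against 173 and 231 in pericytes (-1.43 ± 0.37, adjusted p = 0.0243), and 5 of 11 alternatives ended the call. RPL15 was at 1400 and 968 CPM in ZKS cells, against 1786 and 1758 in pericytes (-0.97 ± 0.28, adjusted p = 0.0336), and 7 of 11 alternatives ended the call.

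RPS19 (ENSDARG00000030602), the gene most often mutated in the disease, was at 167 and 183 CPM in ZKS cells, with 190.4 and 302 in pericytes and 169 and 116 in sinusoids. In DP cells it was at 129 and 125 CPM with IWR-1-endo and Thpo, 249 and 197 CPM in co-culture and 236 and 182 CPM when uncultured. The 2 treated libraries were the lowest of the 6 DP libraries, and the changes did not pass (-0.92 ± 0.61, adjusted p = 0.769 against co-culture and -0.91 ± 0.61, adjusted p = 0.67 against uncultured cells). RPS24 (ENSDARG00000039347), of the small subunit, was at 156 and 247 CPM in ZKS cells, with 143 and 301 in pericytes and 217 and 176 in sinusoids, with all 3 groups in overlap. It varied little in the DP set, from 259.7 to 315 CPM.

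Where 2 copies or relatives of a gene exist, their balance differed between groups by more than the libraries of a group did for several pairs. Within a pair, the share is taken from the same library and so does not depend on the scaling. RPL22L1 carried 7.67% and 3.78% of the CPM of RPL22L1 plus RPL22 in ZKS cells, with 16.6% and 13.7% in pericytes and 29.9% and 26.3% in sinusoids. In DP cells it carried 67.0% and 58.7% with IWR-1-endo and Thpo, 76.0% and 70.3% in co-culture and 82.7% and 70.6% when uncultured. No 2 niche groups overlapped, every DP library lay above every niche library, and the treated DP libraries lay below the other 4 DP libraries. RPL22 (ENSDARG00000070437) itself was at 70.06 to 155 CPM in the niche libraries and 65.0 to 113 CPM in the DP libraries, so most of the difference between the sets was in RPL22L1, at 3.34 to 37.9 CPM in the niche libraries and 120.2 to 311 CPM in the DP libraries. In mice RPL22 represses RPL22L1, and in zebrafish embryos the pair has been linked to the emergence of blood stem cells.

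The zinc-finger protein of the small subunit RPS27 has the copies rps27.1 and rps27.2, and rps27.1 carried 22.9% and 23.2% of the pair in ZKS cells, with 30.7% and 39.7% in pericytes and 70.9% and 64.6% in sinusoids. In DP cells it carried 82% and 72.4% with IWR-1-endo and Thpo, 71.2% and 72.9% in co-culture and 66.6% and 69.9% when uncultured. Most of the pair's CPM came from rps27.2 in ZKS cells and pericytes, and from rps27.1 in sinusoids and all DP groups. Of the pair of RPS26 copies, ENSDARG00000030408 carried 81.1% and 80.9% in ZKS cells, with 71.3% and 70.5% in pericytes and 59.8% and 61.4% in sinusoids. It carried 41.3% and 34.8% in DP cells with IWR-1-endo and Thpo, 60.7% and 53.5% in co-culture and 44.0% and 39.9% when uncultured. The order ZKS, pericyte, sinusoid held in every niche library, and the co-cultured libraries lay above the other 4 DP libraries.

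The stalk copy rplp2l carried 34.9% and 39.8% of rplp2l plus rplp2 in ZKS cells, with 54.4% and 47.5% in pericytes and 48.6% and 43.9% in sinusoids. In DP cells it carried 51.7% and 61.6% with IWR-1-endo and Thpo, 56.2% and 61.4% in co-culture and 68.6% and 69.0% when uncultured. Pericytes and sinusoids overlapped, and ZKS cells lay below both. Of the RPL5 copies, ENSDARG00000015862 carried 35.9% to 43.6% in the niche libraries, where all groups overlapped, and 50.7% to 63.9% in the DP libraries. RPL7L1 carried 2.12% to 6.38% of RPL7L1 plus RPL7. Shares of near-identical copies are uncertain where reads could be assigned to either, and the copy shares had no test.

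**Figure D4:**
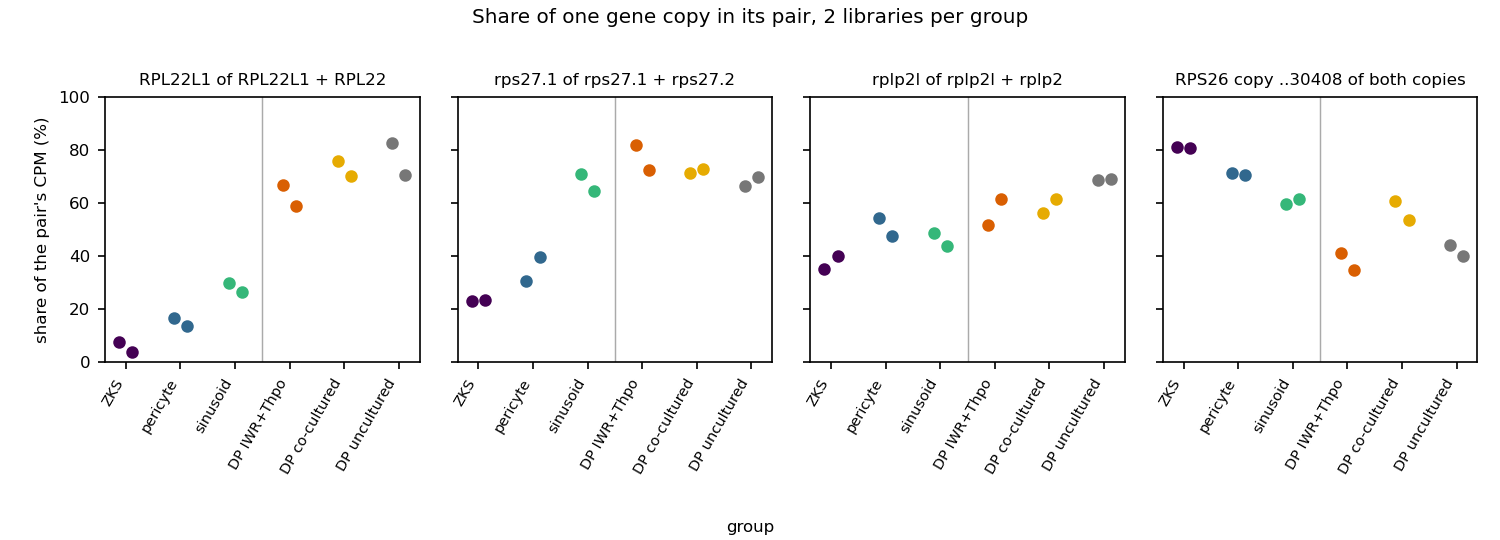
Share of 1 copy in the summed CPM of its pair (y axis, percent) in each library, with both libraries of each of the 6 groups as points and the niche groups left of the line. RPL22L1 carries 3.78% to 29.9% of its pair in niche libraries and 58.7% to 82.7% in DP libraries, and rps27.1 carries 22.9% to 39.7% in ZKS cells and pericytes and 64.6% to 82% elsewhere.

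The DP comparisons asked what co-culture with ZKS cells, and the addition of IWR-1-endo and Thpo to it, did to gata2a+ runx1+ cells. None of the 81 members passed in any of the 3 comparisons (limma with Benjamini-Hochberg adjustment over 8795 genes, 0.0% of genes called in each). At an unadjusted p under 0.05, 12 members were lower and 0 higher with IWR-1-endo and Thpo against uncultured cells, where 13.5% of all genes tested passed that limit. Against co-culture alone 10 were lower and 1 higher, where 9.6% of all genes did. In co-culture against uncultured cells 2 were lower and 0 higher, where 11.3% of all genes did.

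With IWR-1-endo and Thpo the members' median change was -0.40 against co-culture alone, with 66 of 81 negative, where the median of all genes tested was 0. Over the fits without 1 library it was -0.56 to -0.17. It was -0.36 against uncultured cells, with 73 negative, where the median of all genes was -0.64. There it was -0.16 with 56 negative on the CPM as deposited, and -0.54 to -0.25 over the fits without 1 library. Both comparisons share the treated libraries. Co-culture against uncultured cells gave a median of 0.01 with 40 negative, where the median of all genes was -0.45. Without co-cultured replicate 2 it turned to -0.28 with 60 negative, and without co-cultured replicate 1 it was 0.15. By CPM as deposited, 24 of 81 members were lower without overlap with IWR-1-endo and Thpo than in co-culture (15.5% of all genes tested were) and 4 higher (14.5% were). Against uncultured cells 30 were lower (25.9% were) and 6 higher (14.1% were). In co-culture 17 were higher than in uncultured cells (13.1% were) and 12 lower (23.6% were).

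Members with the smallest p are given with their values, since none passed the adjusted threshold. They were named after their values were seen, other than RPSA2 and the RPL5 copies. RPL4 (ENSDARG00000041182), which lines the exit tunnel, was at 4341 and 4882 CPM with IWR-1-endo and Thpo, 8120 and 12934 CPM in co-culture and 8999.9 and 8834 CPM when uncultured. Its change was -1.27 ± 0.26 against co-culture (adjusted p = 0.293) and -1.16 ± 0.26 against uncultured cells (adjusted p = 0.153). Both treated libraries lay below the other 4. RPS4Y2, the table's symbol for ENSDARG00000014690, was at 5004 and 4872 CPM with IWR-1-endo and Thpo, 7469 and 8998 CPM in co-culture and 7630 and 7201 CPM when uncultured (-0.85 ± 0.15, adjusted p = 0.293 and -0.79 ± 0.15, adjusted p = 0.144). RPSA2, with the values given above, changed by -0.62 ± 0.16 against co-culture (adjusted p = 0.319) and by -0.88 ± 0.16 against uncultured cells (adjusted p = 0.144).

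The RPL5 copies, whose protein shares a complex with RPL11, were also lowest with IWR-1-endo and Thpo. ENSDARG00000015862 was at 3177 and 3543 CPM with IWR-1-endo and Thpo, 5185 and 7907 CPM in co-culture and 4806 and 4432 CPM when uncultured (-1.05 ± 0.26, adjusted p = 0.316 against co-culture). ENSDARG00000020197 was at 2164 and 2044 CPM with IWR-1-endo and Thpo, 3203 and 4467 CPM in co-culture and 4668 and 2987 CPM when uncultured (-0.97 ± 0.29, adjusted p = 0.384 against co-culture). For both copies the treated libraries lay under the other 4 DP libraries. RPLP0 overlapped in all DP comparisons, at 19701 and 25166 CPM with IWR-1-endo and Thpo, 20000.5 and 24105 CPM in co-culture and 25729 and 22559 CPM when uncultured. The copy rps27.1 was at 2113.5 and 1709 CPM with IWR-1-endo and Thpo against 1096 and 1060.4 CPM in co-culture (0.70 ± 0.22, adjusted p = 0.409). The member rps19bp1 was listed at 0 and 1.5 CPM with IWR-1-endo and Thpo, against 37.5 and 70.7 CPM in co-culture and 4.1 and 18.8 CPM when uncultured, and did not pass.

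The members differed less between the 2 libraries of a DP group than genes with a mean of at least 100 CPM over the DP set did as a whole. Over the 71 members among these 1444 genes, the log2 difference between replicates had an SD of 0.47 with IWR-1-endo and Thpo, 0.389 in co-culture and 0.34 in uncultured cells. Over all 1444 genes the SD was 3.15 with IWR-1-endo and Thpo, 2.78 in co-culture and 1.74 in uncultured cells. None of the 71 members was listed at 0 in a library of these groups, while 105 of the 1444 genes were with IWR-1-endo and Thpo, 70 in co-culture and 20 in uncultured cells. In the niche set the members' SD over 53 of them was 0.363 in ZKS cells (0.342 over 1684 genes), 0.293 in pericytes (0.686 over the genes) and 0.149 in sinusoids (0.896 over the genes). Pearson's r of log2 values between the libraries of a group, across the 81 tested members of each set, was 0.974 to 0.992, and across all tested genes 0.438 to 0.983. Genes are not independent replicates, and these values are a description. The genes were not matched to the members in level, and a gene can reach the mean of 100 CPM through high values in few libraries. The smaller SD therefore does not show a trait particular to the members.

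Members also shifted together between libraries of the same group, except in uncultured DP cells. In pericytes 79 of 81 were higher in replicate 2 than in replicate 1, with a median ratio of 1.74, while 46.0% of all genes were. In ZKS cells 69 of 81 were higher in replicate 2 (median ratio 1.28), while 37.0% of all genes were. In sinusoids 71 of 81 were lower in replicate 2 (median ratio 0.833), while 27.7% of all genes were higher. All tested genes shifted the same way there, with a median log2 difference of -0.389 against -0.264 for the members. In DP cells 56 were higher in replicate 2 with IWR-1-endo and Thpo, 63 in co-culture and 38 when uncultured. Of all genes 40.6%, 43.9% and 46.0% were, so the uncultured share of 46.9% of members was near that of all genes. The shift of 0.80 on the log2 scale between the pericyte libraries was larger than the members' median difference between ZKS cells and pericytes or between pericytes and sinusoids. In the pericyte libraries the erythroid, macrophage, renal tubule and endothelial marker sums (the last 63.5 and 119 CPM) were also higher in replicate 2. The sums of the neutrophil list (272 CPM in replicate 1 and 116 CPM in replicate 2), the B and T cell list (110 and 68.4 CPM) and the mural and stromal list (7853 and 7454 CPM) were lower in replicate 2. Nearly all of the neutrophil sum came from NCF1 (272 and 115 CPM) and of the B and T cell sum from ighm (102 and 64.7 CPM). Each of these 2 sums thus rests on 1 gene. The part of other cells in the shift was not tested.

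**Figure D5:**
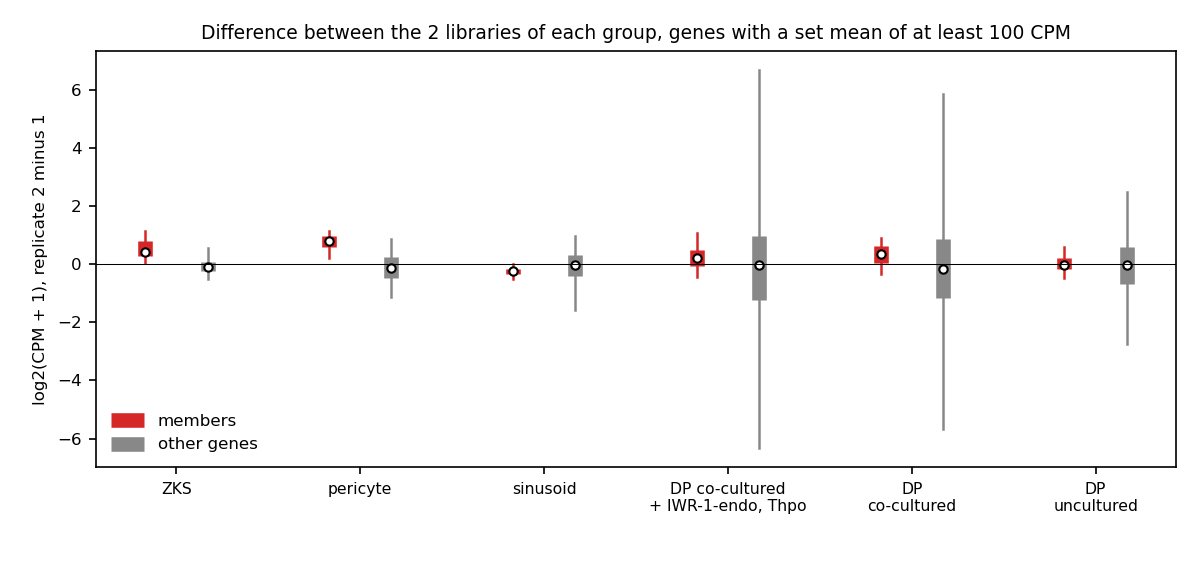
Log2 difference of replicate 2 minus replicate 1 within each of the 6 groups (y axis), for members and for other genes with a mean of at least 100 CPM over their set. Points are medians, thick bars run from the lower to the upper quartile, and lines reach from the 5th to the 95th percentile. The members' median is 0.406 for ZKS cells, 0.783 for pericytes and -0.252 for sinusoids.

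Other genes of the ribosome and its production gave a setting for these values. RACK1 and FAU encode ribosomal proteins whose symbols the rule does not match, and neither passed in any comparison. RACK1 (ENSDARG00000041619) was at 2662 and 4875 CPM in ZKS cells, with 2709 and 3634 in pericytes and 2828 and 2302 in sinusoids, and at 9476 to 19169 CPM in the DP libraries. Ribosome biogenesis genes make and process ribosomal RNA and assemble the subunits. Of 71 tested, 30 rose in ZKS cells against pericytes and 2 fell, where 15.2% of all genes rose and 22.0% fell, with a median change of 1.07. Among them NMD3, an export adaptor of the large subunit, was at 67.9 and 57.9 CPM in ZKS cells, against 2.0 and 2.0 in pericytes (4.09 ± 0.44, limma adjusted p = 0.00102). UTP6, of early small-subunit assembly, was at 35.96 and 43.9 CPM in ZKS cells, against 0.57 and 1.15 in pericytes (4.19 ± 0.43, adjusted p = 0.000888). In sinusoids UTP6 was at 34.18 and 34.23 CPM, near its level in ZKS cells, so its low level was particular to pericytes among the niche groups. Against sinusoids 11 of the 71 rose in ZKS cells and 2 fell, where 13.7% of all genes rose and 17.9% fell. In pericytes 2 rose and 8 fell against sinusoids, where 14.4% of all genes rose and 10.9% fell. The sums over the list were 8744 and 8781 CPM in ZKS cells, with 4170 and 3332 in pericytes and 5300 and 5277 in sinusoids. The difference between the 2 lists in their changes was not tested.

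The 75 mitochondrial ribosomal protein genes belong to the ribosome that translates the mitochondrial genome's messengers. Of 70 tested, 26 rose in ZKS cells against pericytes and 1 fell (median 1.48), where 15.2% of all genes rose and 22.0% fell. Against sinusoids 17 rose and 2 fell (median 0.96), where 13.7% of all genes rose and 17.9% fell. In pericytes 1 rose and 3 fell against sinusoids, where 14.4% of all genes rose and 10.9% fell. MRPL51 (ENSDARG00000041340) was at 52.8 and 49.3 CPM in ZKS cells, with 0.57 and 0 in pericytes and 0 and 0.12 in sinusoids (5.14 ± 0.51, adjusted p = 0.000835 against pericytes). The mitochondrial list took 0.197% and 0.255% of the library in ZKS cells, with 0.057% and 0.0577% in pericytes and 0.0859% and 0.0632% in sinusoids. In DP cells it took 0.161% and 0.158% with IWR-1-endo and Thpo, 0.251% and 0.25% in co-culture and 0.228% and 0.196% when uncultured.

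Of 23 tested translation factor genes whose messengers carry the TOP start in mammals, 1 rose in ZKS cells and 4 fell against pericytes, where 15.2% of all genes rose and 22.0% fell. Against sinusoids 0 rose and 3 fell, where 13.7% of all genes rose and 17.9% fell. In pericytes 1 rose and 1 fell against sinusoids, where 14.4% of all genes rose and 10.9% fell. The elongation factor copy eef2a.1 was at 1.4 and 0.1 CPM in ZKS cells, with 77.5 and 72.5 in pericytes and 230 and 322 in sinusoids (-5.77 ± 0.47, limma adjusted p = 0.000398 against pericytes and -7.55 ± 0.47, adjusted p = 0.000135 against sinusoids). The sums over the translation factor list were 44134 and 50617 CPM in ZKS cells, with 52884 and 50956 in pericytes and 51202 and 50298 in sinusoids. Of 18 tested genes of the mTOR and Myc pathways, 2 rose and 5 fell in ZKS cells against pericytes (15.2% and 22.0% of all genes did). Against sinusoids 2 rose and 3 fell (13.7% and 17.9% did), and in pericytes 5 rose and 2 fell against sinusoids (14.4% and 10.9% did). MYC (ENSDARG00000007241) was at 100.1 and 91.1 CPM in ZKS cells, with 3753 and 3899 in pericytes and 393 and 604 in sinusoids. Its changes were -5.67 ± 0.38 (adjusted p = 0.000207) in ZKS cells against pericytes, -2.63 ± 0.38 (adjusted p = 0.00291) against sinusoids, and 3.04 ± 0.38 (adjusted p = 0.00256) in pericytes against sinusoids. MLST8, a subunit of the mTOR complexes, was at 2.92 and 2.83 CPM in ZKS cells, with 15.8 and 9.59 in pericytes and 0.15 and 0.99 in sinusoids. In the DP set 0 genes of these lists passed, as for all genes tested.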

How the data were processed

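Cells were sorted and their RNA amplified by Quartz-seq, per the labels' protocols, which describe no molecular identifiers. The submitters' processing notes name HISAT2 2.1.0, Subread 1.6.4 and GRCz11, and how each was run is not given in the sources used here. Values are CPM per gene as the authors deposited them, 1 table per library, and 0 columns belong to other series. Niche CPM came out as whole multiples of 1 read (tolerance 0.1 read), from which depth was read. A floor of 3 reads was 0.185 to 0.43 CPM there and covers counting error only. ZKS replicate 2 met the tolerance of 0.1 read too, but a check of units did not accept its values as recovered reads. For that reason edgeR's quasi-likelihood test was run on reads for pericytes against sinusoids and for no comparison with ZKS cells. DP values had no readable step. Of 32047 identifiers, 28978 had a symbol.

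Each set of 6 libraries was fitted once in R 4.3.3 with limma 3.58.1 (trended, two-sided, 3 residual degrees of freedom) on TMM-scaled log2(CPM + 1), with factors from edgeR 4.0.16. A gene entered if 2 libraries of the set reached 1 CPM. Benjamini-Hochberg adjustment covered every gene that entered, and "rose", "fell" and "passed" mean an adjusted p under 0.05. The pseudocount shrinks the fold changes of low genes. The fit was tested on simulated data. Their spread between replicates was set in advance and not matched to that of the DP libraries, so that check cannot tell whether changes were missed in the DP set. Members and lists were chosen with earlier results of these data known. Genes were named by role (stalk, RPSA2, RPS6, Diamond-Blackfan, copies), by size of change (up to 5 members called in each direction, up to 3 called genes of another list), or for a value of 0 throughout a set, and exceptions are marked. Alternatives were CPM as deposited, TMM without the members, a pseudocount of 5, no filter, the 4 libraries compared, a replicate block, each library left out and, added after seeing the data, scaling to the members' own median. Neutrophil and B and T cell markers summed to at most 986 and 238 CPM, most of it from NCF1 and ighm. Some members enter every count and sum but are not reported singly here.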

Additional observations from a re-analysis of the deposited data

How the results depend on the processing

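In the DP set, 0 members passed under every alternative run. In the niche set the count of members called moved by over 1.5 times as follows. In ZKS cells against pericytes (0 higher, 17 lower), the CPM as deposited gave 3 higher and 10 lower, no filter 11 lower, and the members' own median 2 higher and 4 lower. In ZKS cells against sinusoids (3 higher, 6 lower), the CPM as deposited gave 6 higher, no filter 1 higher and 3 lower, and the replicate block 11 lower. In pericytes against sinusoids (7 higher, 0 lower), the replicate block gave 11 higher, the members' own median 1 higher and 1 lower, and edgeR on recovered reads 1 higher. Leaving out each library in turn gave 1 to 30 lower in ZKS cells against pericytes, 0 to 2 higher and 0 to 3 lower in ZKS cells against sinusoids, and 0 to 17 higher in pericytes against sinusoids. In such fits the lone library of a group is assumed to vary like the others. Among named genes, directions that turned were RPSA2 in ZKS cells against pericytes (0.29 on the CPM as deposited, 0.67 with the members' own median, and -0.12 to 0.01 over the fits without 1 library), and, with the members' own median, RPSA2 and RPLP0 in pericytes against sinusoids (-0.10 and -0.33). The members' median turned in ZKS cells against sinusoids (-0.21 without ZKS replicate 2), in co-culture against uncultured cells (-0.28 without co-cultured replicate 2 and -0.05 without uncultured replicate 1) and, by construction near 0, with the members' own median (0.05 in ZKS cells against pericytes and -0.02 in pericytes against sinusoids). The cause was not tested. Counting each followed change of a gene under each alternative, 55 such pairs lost the threshold and 3 gained it. Changes of the other named genes, such as RPL11, RPL31, RPLP1 and rplp2l against pericytes, are not in this count. Deviations of libraries with the same replicate number correlated at -0.0096 to 0.0637 over all genes tested. Noise of low genes enters these values, so they cannot exclude that the numbers pair the libraries. Depth is unknown in the DP set and limits low members in the niche set.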
